A study of Homo sapiens with 6 samples.

Results

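The genes described here are 10 protein-coding genes that lie beside ABCF1 in the MHC class I region of chromosome 6: GNL1, PRR3, PPP1R10, ATAT1, DHX16, PPP1R18, NRM, MDC1, TUBB and FLOT1. They were chosen by name from the 60612 genes of the deposited tables, and ABCF1 is the gene they are set against. All 10 passed edgeR's filter on low counts and are among the 16545 genes tested. RNA was sequenced from 3 libraries labelled ABCF1 and 3 libraries labelled NC-1, and all 6 carry the cell line label HepG2, an established human line from a liver tumour. The series concerns stable HepG2 lines made to overexpress ABCF1, and the design text mentions lysine-to-arginine forms, whereas the sample labels give only the names ABCF1 and NC-1. The labels explain neither NC-1 nor whether a group is 1 clone. Against its label, ABCF1 had the lower transcript level where the label names it, and the comparison asks whether the genes around it were lower too. Every direction given here rests on these labels being right.

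ABCF1 encodes an ATP-binding cassette protein without membrane spans that binds ribosomes and takes part in the start of translation. The MHC class I region holds antigen-presentation genes, and packed between them are many genes with other functions. ABCF1 and most of its neighbours are examples of these other genes. The neighbours do not form 1 pathway: they serve the nucleus, the microtubules, RNA splicing, protein phosphatase targeting and membrane organisation.

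In the coordinates of the deposited RPKM table (GRCh38, per the submitters' processing notes), ABCF1 and the 10 neighbours span 201 kb, chr6:30541377-30742732. GNL1 and PRR3 lie on the low-coordinate side and the other 8 on the high-coordinate side. GNL1 (minus strand) and PRR3 (plus strand) stand head to head with 105 bp between their annotated ends. PRR3 ends 7669 bp before ABCF1 (chr6:30571393-30597179, plus strand) begins. PPP1R10 is on the minus strand and lies tail to tail with ABCF1, with 3233 bp between them. Then come ATAT1, DHX16, PPP1R18, NRM, MDC1, TUBB and FLOT1, whose lowest coordinates lie 55.4 to 156 kb from that of ABCF1.

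The promoters of ABCF1 and of the genes on either side are shown because the comparison turns on whether these adjacent genes moved together. Each is the 250 bases before the start site in RefSeq (GRCh38.p14), written 5′ to 3′ on the gene's own strand. PRR3, at the first of its 2 RefSeq starts, is chr6:30556459-30556708 (plus strand), ABCF1 is chr6:30571192-30571441 (plus strand) and PPP1R10 is chr6:30617244-30617493 (minus strand). The PPP1R10 window lies inside the gene as deposited, which on its minus strand starts at 30618612. The end of the ABCF1 window, with its ETS core, lies inside ABCF1 as deposited, which starts at 30571393. The PRR3 window lies inside GNL1 as deposited, whose highest coordinate is 30557174. Capitals mark matches to the 5 motifs searched on both strands: the TATA box spelled TATAAA, the CCAAT box by its letters, the GC box spelled GGGCGG, an E-box spelled CACGTG and an ETS core spelled CCGGAAG. No match overlapped another in these windows.
PRR3: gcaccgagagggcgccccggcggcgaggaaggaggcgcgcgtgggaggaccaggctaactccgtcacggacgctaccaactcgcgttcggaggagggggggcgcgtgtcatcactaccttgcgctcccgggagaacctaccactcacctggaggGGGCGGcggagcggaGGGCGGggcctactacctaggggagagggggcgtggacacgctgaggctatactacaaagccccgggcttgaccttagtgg
ABCF1: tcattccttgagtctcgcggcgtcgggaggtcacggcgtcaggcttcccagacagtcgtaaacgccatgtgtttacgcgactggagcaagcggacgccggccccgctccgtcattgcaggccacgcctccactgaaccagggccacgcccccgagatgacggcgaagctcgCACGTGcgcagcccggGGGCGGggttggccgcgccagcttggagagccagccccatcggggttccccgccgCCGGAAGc
PPP1R10: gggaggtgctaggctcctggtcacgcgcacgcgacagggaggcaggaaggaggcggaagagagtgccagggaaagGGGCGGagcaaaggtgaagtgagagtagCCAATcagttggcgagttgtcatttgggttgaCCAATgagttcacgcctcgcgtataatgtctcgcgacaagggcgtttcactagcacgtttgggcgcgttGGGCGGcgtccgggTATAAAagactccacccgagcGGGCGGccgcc

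The ABCF1 window held 1 GC box, 1 E-box and 1 ETS core, that shown for PRR3 held 2 GC boxes, and that of PPP1R10 held 3 GC boxes, 2 CCAAT boxes and 1 TATA box. RefSeq gives several start sites for some genes, so the 11 genes have 16 windows. A GC box was found in 13 of these windows and for 10 of the 11 genes, DHX16 being the exception, whereas 42.6% of 35116 RefSeq promoters hold one. The E-box was found in 2 of the 16 windows, that of ABCF1 and 1 of those of TUBB, and in 6.34% of all promoters. The start of GNL1 and the first RefSeq start of PRR3 lie 220 bases apart, so their windows, taken from before the start to just after it, share 281 bases, read on opposite strands. The window at the other RefSeq start of PRR3, which is the nearer to the start in the deposited table, held 1 TATA box, 3 ETS cores and no GC box, and shares no base with that of GNL1. These letter matches describe the windows and show no bound factor.

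A microRNA gene, MIR877, lies inside ABCF1 on the same strand. None of the 7 annotated ABCF1 transcripts compared has an exon there, so it is intronic in them. The mature products of MIR877 (RefSeq, GRCh38.p14) are shown because it is the gene that shares ABCF1's own transcribed region, with the seed, bases 2 to 8, in capitals. They lie at chr6:30584332-30584351 and chr6:30584397-30584417, plus strand.
hsa-miR-877-5p: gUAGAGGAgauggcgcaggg
hsa-miR-877-3p: uCCUCUUCucccuccucccag
MIR877 took 2 to 3 counts in the libraries labelled ABCF1 and 2 to 4 in those labelled NC-1, and a library of long RNA is not made to measure it.

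Total counts were between 62323034 and 77394510 per library. ABCF1 replicate 3 and NC-1 replicate 2 stood apart from the other 4 libraries on the first principal component, so results are also given with this division (the library set) as a covariate and without those libraries. Of 12 hepatocyte and HepG2 markers, 11 stayed below 1 CPM in every library, ALB among them with at most 0.461 CPM, so transcripts of secreted liver proteins were near 0 despite the label. HNF4A, a liver transcription factor, was the exception, and the summed markers came to 103 to 122 CPM in the libraries labelled ABCF1 and 92.2 to 107 CPM in those labelled NC-1. Markers below 1 CPM everywhere were 3 of 5 for fibroblasts, 3 of 4 for leukocytes and 2 of 3 for endothelium. Whether the 3 libraries of each label were grown separately is not stated, so the p-values reflect differences among libraries that could be technical. In bulk RNA, fewer cells that express a gene and less of its RNA per cell cannot be told apart.

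None of the 10 neighbours had a fold change as low as that of ABCF1. Of all 16545 tested genes, 876 had a fold change at or below that of ABCF1, itself included. ABCF1 stood at 102, 108 and 110 CPM in the libraries labelled ABCF1, against 162, 159 and 155 CPM in those labelled NC-1. CPM is the count scaled to the TMM-adjusted library size. The groups did not overlap for ABCF1, its fitted log2 fold change (ABCF1 over NC-1) was -0.57 (SE 0.08), and its level was 32.8% lower. Among the neighbours the fitted log2 fold change ran from -0.11 for PPP1R10 to 0.35 for PPP1R18, with 9 of 10 above 0 and a median of 0.24. The median over all 16545 tested genes was 0.0005 and over the 855 tested on chromosome 6 it was -0.03. Of these genes 50.1% and 47.0% were above 0.

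In edgeR's quasi-likelihood test no neighbour passed an adjusted p under 0.05, and neither did any gene of the table in either direction (0% higher, 0% lower), ABCF1 included (unadjusted p = 1.27e-04, adjusted p = 0.252). At an unadjusted p under 0.05, 2 of the 10 neighbours were higher, against 6.27% of all tested genes, and 0 were lower, against 8.54%. Groups that did not overlap in CPM were seen for PPP1R18 and TUBB, both higher, a direction found for 10.7% of all genes. No neighbour had all 3 libraries labelled ABCF1 below all 3 labelled NC-1, a pattern of 12.4% of genes that includes ABCF1.

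**Figure D1:**
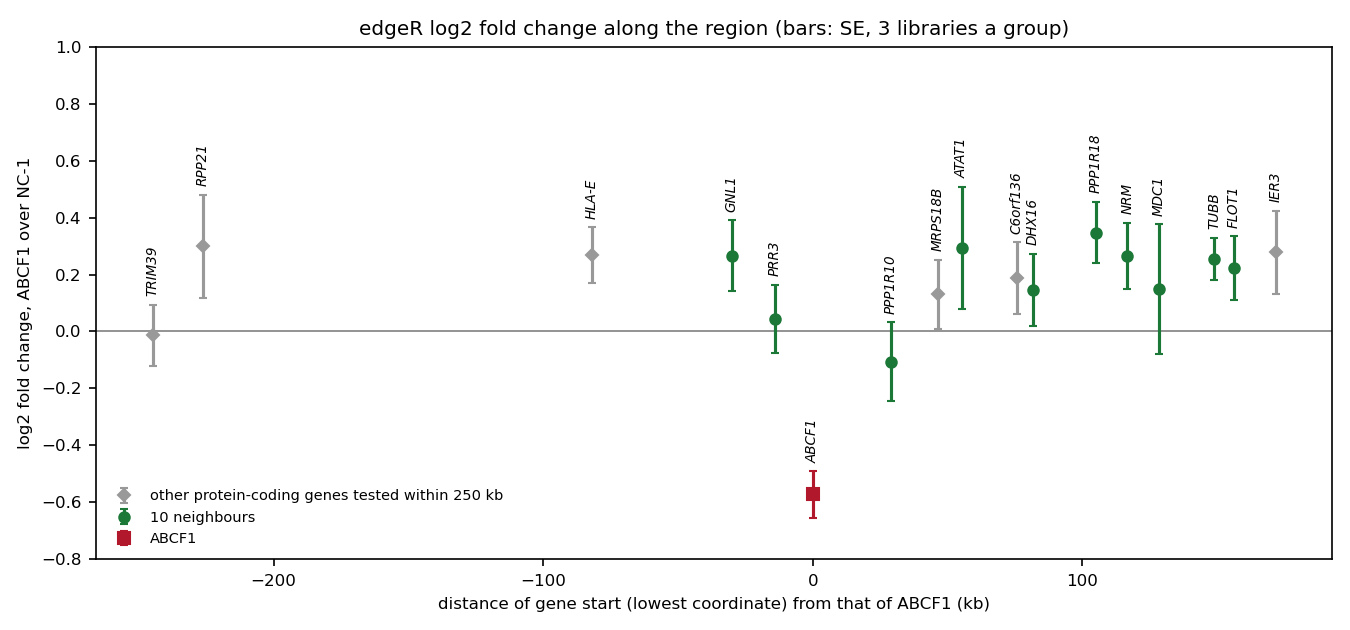
The edgeR log2 fold change, ABCF1 over NC-1, of ABCF1 (square), the 10 neighbours (circles) and 6 other tested protein-coding genes (diamonds) is plotted against the distance in kb of each gene's lowest coordinate from that of ABCF1, with bars for the SE. ABCF1 sits at -0.57, while the neighbours lie between -0.11 and 0.35.

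The genes on the low-coordinate side are GNL1, a GTPase related to nucleolar GTPases, and PRR3, a proline-rich protein with CCCH zinc fingers. GNL1 was at 76.7, 78.8 and 98.1 CPM in the libraries labelled ABCF1, against 65.9, 77.3 and 67.7 CPM in those labelled NC-1. The groups overlapped only through ABCF1 replicate 1, which lay just under NC-1 replicate 2, and ABCF1 replicate 3 was the highest of all 6. Its fitted log2 fold change was 0.27 (SE 0.12; edgeR adjusted p = 0.364), and 0.15 without ABCF1 replicate 3. PRR3, which stands closest to ABCF1 on this side and has 1 of its 2 RefSeq starts beside that of GNL1, was at 18.02, 17.6 and 14.4 CPM against 15.7, 17.2 and 15.7 CPM in NC-1. ABCF1 replicate 3 was here the lowest of the 6 libraries and the groups overlapped. The fitted log2 fold change of PRR3 was 0.04 (SE 0.12; edgeR adjusted p = 0.892), and 2 SE on either side covers -0.20 to 0.28. Its sign was not stable, since it was -0.02 without ABCF1 replicate 1, and scaled by library size alone it was -0.05. ABCF1 replicate 3 thus had the highest GNL1 and the lowest PRR3 of the 6 libraries.

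PPP1R10 is the adjacent gene on the other side and encodes PNUTS, a nuclear subunit that targets protein phosphatase PP1 and acts in transcription termination. It was at 47.1, 43.8 and 35.9 CPM in the libraries labelled ABCF1, against 49.0, 38.8 and 48.7 CPM in those labelled NC-1. The groups overlapped, and the lowest library of each group was the one that stood apart on the first principal component. PPP1R10 was the only neighbour with a fitted log2 fold change below 0, at -0.11 (SE 0.14; edgeR adjusted p = 0.755), with 2 SE on either side covering -0.38 to 0.17. Without ABCF1 replicate 3 that value was 0.0057, but without both libraries that stood apart it was -0.10 (SE 0.07). Its start in the deposited table overlaps MRPS18B, on the opposite strand, by 773 bp, and without stated strand use reads in that stretch cannot be told apart. The RefSeq start of PPP1R10, 30617243, lies outside that stretch.

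ATAT1 and DHX16 follow. ATAT1, the acetyltransferase of alpha-tubulin in microtubules, was at 8.14, 7.73 and 4.85 CPM in the libraries labelled ABCF1, against 6.20, 5.59 and 5.10 CPM in those labelled NC-1. ABCF1 replicates 1 and 2 were the highest of the 6 and ABCF1 replicate 3 the lowest, so the groups overlapped. Its log2 fold change was 0.29 with the widest SE but one among the neighbours (SE 0.21; edgeR adjusted p = 0.549), and it was 0.50 without ABCF1 replicate 3 and 0.15 without ABCF1 replicate 1. DHX16, a DEAH-box helicase of the spliceosome, was at 71.0, 63.6 and 55.4 CPM, against 59.0, 50.3 and 62.5 CPM in NC-1, with overlapping groups (log2 fold change 0.15, SE 0.13; edgeR adjusted p = 0.621). Its log2 fold change was 0.049 without ABCF1 replicate 1 and 0.061 without NC-1 replicate 2. DHX16 overlaps C6orf136 on the opposite strand by 92 bp.

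PPP1R18 showed the highest fold change of the 10. It encodes phostensin, which brings PP1 to actin filaments. PPP1R18 was at 133, 137 and 129 CPM in the libraries labelled ABCF1, against 111, 90.2 and 112 CPM in those labelled NC-1. All 3 libraries labelled ABCF1 lay above all 3 labelled NC-1, with NC-1 replicate 2 the lowest. The log2 fold change was 0.35 (SE 0.11), with an unadjusted edgeR p of 0.0124 that came to 0.263 after adjustment.

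NRM and MDC1 encode nuclear proteins. NRM encodes nurim, a protein of the inner nuclear membrane, and was at 44.7, 50.6 and 56.2 CPM in the libraries labelled ABCF1, against 38.9, 46.0 and 41.2 CPM in those labelled NC-1. Only ABCF1 replicate 1 fell within the NC-1 range, and the fitted log2 fold change was 0.27 (SE 0.12; edgeR adjusted p = 0.344). MDC1, the scaffold that binds phosphorylated H2AX at DNA double-strand breaks, was at 87.2, 80.0 and 54.7 CPM, against 72.0, 48.0 and 79.9 CPM in NC-1. The lowest library of each group was again the one that stood apart, and the spread within a group exceeded the difference between groups. Its log2 fold change was 0.15 (SE 0.23; edgeR adjusted p = 0.793), and leaving out NC-1 replicate 2 turned it to -0.04.

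TUBB and FLOT1 are the farthest of the 10 from ABCF1 and the most abundant per length, in RPKM. TUBB encodes a beta-tubulin of microtubules and was at 2090, 2127 and 2099 CPM in the libraries labelled ABCF1, against 1809, 1673 and 1807 CPM in those labelled NC-1. The groups did not overlap, and the libraries labelled ABCF1 differed among themselves by less than those labelled NC-1. The log2 fold change was 0.26 (SE 0.07), with an unadjusted edgeR p of 0.00864 and an adjusted p of 0.261. The 8 TUBB pseudogenes of the tables together took 15 to 45 counts per library, at most 0.0343% of the TUBB count. A noncoding RNA on the opposite strand, AL662797.1, overlaps TUBB by 773 bp and took 56 to 90 counts in the libraries labelled ABCF1 and 36 to 60 in those labelled NC-1. The genes that overlap ATAT1 (PTMAP1), MDC1 (MDC1-AS1) and FLOT1 (a Y_RNA) took at most 4 counts in any library. FLOT1 encodes flotillin-1, a scaffold of membrane microdomains, and was at 264, 261 and 313 CPM, against 220, 263 and 235 CPM in NC-1. ABCF1 replicate 2 lay just under NC-1 replicate 2, so the groups overlapped (log2 fold change 0.22, SE 0.11; edgeR adjusted p = 0.388), and the fold change was 0.14 without ABCF1 replicate 3.

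**Figure D2:**
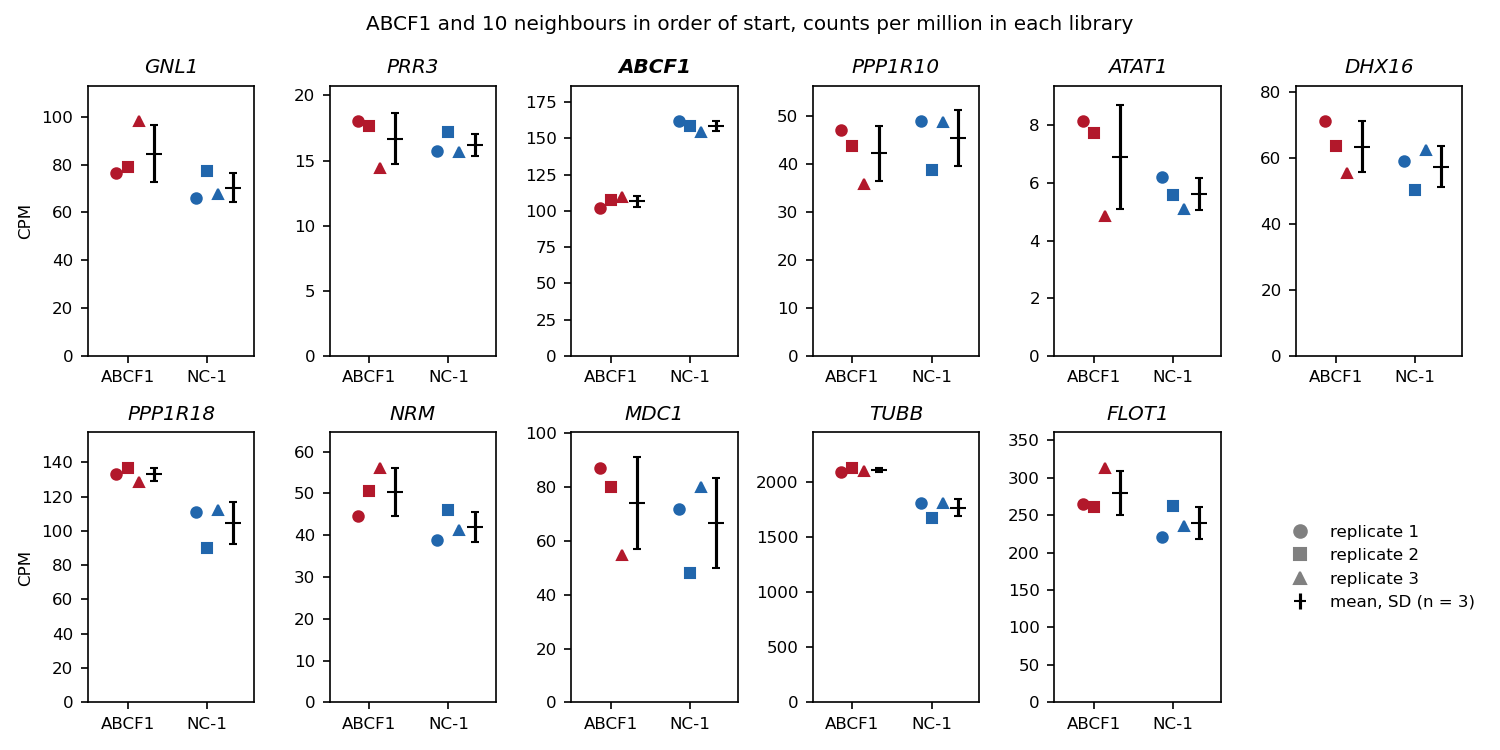
CPM of ABCF1 and the 10 neighbours, in order of start, is plotted for each library labelled ABCF1 (left of each panel) and NC-1 (right), with the replicate shown by the marker and the mean and SD (n = 3) as a black bar. ABCF1 is the only panel in which all 3 libraries labelled ABCF1 lie below all 3 labelled NC-1, and PPP1R18 and TUBB are those in which all 3 lie above.

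Per length, the neighbours' transcripts spanned a wide range, given here as the authors' RPKM. TUBB averaged 733 ± 23.8 RPKM in the libraries labelled ABCF1 and 657 ± 43.3 RPKM in those labelled NC-1 (SD, n = 3 each). FLOT1 came next at 135 ± 9.07 and 124 ± 7.27 RPKM. ABCF1 itself averaged 28.1 ± 0.483 RPKM in the libraries labelled ABCF1, where it ranked 5 of the 11 genes, and 45.0 ± 2.07 RPKM in NC-1, where it ranked 3. PPP1R18, at 33.8 ± 1.37 and 27.8 ± 3.34 RPKM, and NRM, at 28.7 ± 3.34 and 25.6 ± 1.62 RPKM, stood above ABCF1 by mean in the libraries labelled ABCF1 and beneath it in those labelled NC-1. DHX16 followed, with a range of 13.7 to 19.01 RPKM over the 6 libraries.

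MDC1, PPP1R10 and GNL1 had close RPKM levels, with ranges over the 6 libraries of 6.59 to 12.4, 6.83 to 10.6 and 8.88 to 12.6. PRR3 ran from 6.56 to 8.66 RPKM and ATAT1 was the lowest, at 2.20 to 3.73 RPKM. In the NC-1 order, ranges over the 6 libraries overlapped between ABCF1 and PPP1R18, PPP1R18 and NRM, MDC1 and PPP1R10, and PPP1R10 and GNL1, so over all libraries those pairs were not separated beyond their spread. Within a group ABCF1 and PPP1R18 were separated, in opposite orders: ABCF1 ran from 27.7 to 28.6 RPKM and PPP1R18 from 32.3 to 34.9 RPKM in the libraries labelled ABCF1, against 43.3 to 47.3 RPKM and 24.03 to 30.2 RPKM in those labelled NC-1. TUBB and FLOT1 were each separated from the next gene.

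The count of ABCF1 relative to a neighbour in the same library does not depend on how libraries are scaled, and it was lower in the libraries labelled ABCF1 for all 10 by mean. For 1 count of GNL1 there were 1.33, 1.37 and 1.12 counts of ABCF1 in the libraries labelled ABCF1, against 2.45, 2.05 and 2.28 in those labelled NC-1. For PRR3 the ratios were 5.65, 6.11 and 7.62, against 10.3, 9.24 and 9.87. For PPP1R10, on the other side, they were 2.16, 2.46 and 3.05, against 3.30, 4.08 and 3.17. For each of these 3 genes, every library labelled ABCF1 had a lower ratio than every library labelled NC-1.

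The mean difference in the log2 ratio, ABCF1 minus NC-1, ran from -0.93 against PPP1R18 to -0.47 against PPP1R10. Averaged over the 10 neighbours the log2 ratio was 0.47 ± 0.13 in the libraries labelled ABCF1 and 1.23 ± 0.07 in those labelled NC-1 (SD, n = 3 each), a difference of -0.76, which is a ratio 40.9% lower. The groups did not overlap for 9 of the 10 neighbours, against 62.6% of 15858 genes with a lower, non-overlapping ratio to ABCF1. The exception was MDC1, for which ABCF1 replicate 3, at 2.01, lay above NC-1 replicate 3, at 1.93. Over all genes the median difference was -0.58. All 10 ratios share the ABCF1 count and are not independent of one another.

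In a two-sided exact permutation test over the 6 libraries, p was 0.1 for the mean over neighbours and for 9 single neighbours (Benjamini-Hochberg p = 0.111 over 10), and 0.2 for MDC1. A p of 0.1 is the smallest that 3 libraries against 3 allow, so this test cannot pass 0.05. The lower level of ABCF1 was known when the comparison was chosen.

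**Figure D3:**
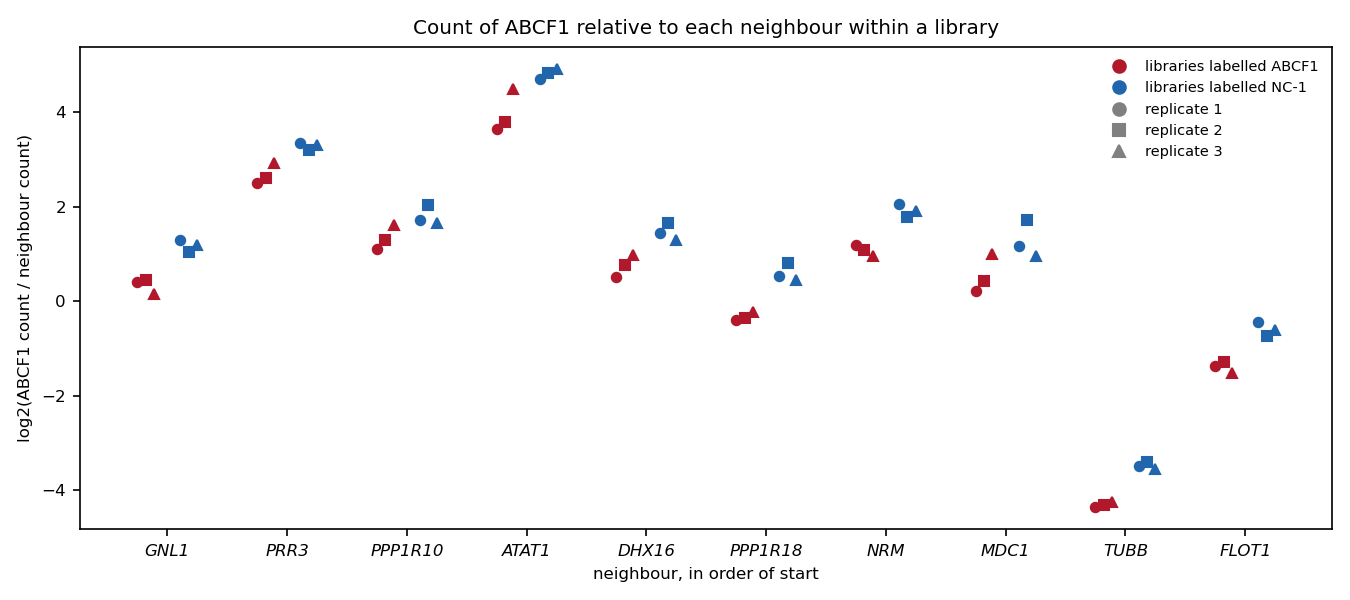
The log2 ratio of the ABCF1 count to each neighbour's count is plotted for each library labelled ABCF1 (left, red) and NC-1 (right, blue), with neighbours in order of start and markers for the replicate. The libraries labelled ABCF1 lie below those labelled NC-1 for 9 neighbours, and for MDC1 ABCF1 replicate 3 lies above NC-1 replicate 3.

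In other fits some neighbours passed the test, all of them upward. Under the DESeq2 Wald test, PPP1R18 (adjusted p = 0.0498) and TUBB (adjusted p = 0.0212) rose, 2 of 10 against 1.47% of genes called higher, while 0 of 10 fell against 2.31%. In the edgeR fit with the library set, GNL1, PPP1R18, NRM, TUBB and FLOT1 rose, 5 of 10 against 12.9%, and 0 fell against 12.5%, among which was ABCF1 (log2 fold change -0.57, SE 0.05; edgeR adjusted p = 8.93e-04). The fit to the 4 libraries that did not stand apart called GNL1, PPP1R18, TUBB and FLOT1 higher, 4 of 10 against 5.68%, and 0 lower against 5.1%. That set came from the counts under test, so p-values of these fits are not those of a planned design. Within the 4 libraries the difference in mean log2 CPM was -0.59 for ABCF1 and above 0 for 9 of 10 neighbours. Within the pair that stood apart, 1 library a group, it was -0.53 for ABCF1 and above 0 for 7 of 10. PRR3 was at 0.18 within the 4 and -0.25 within the pair, and ATAT1 at 0.50 and -0.21, while PPP1R10 was at -0.10 and -0.11.

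Fold changes followed GC content across genes, with Spearman's rho of 0.63 over 13040 genes that are not independent replicates. The neighbours had a median transcript GC of 53.7%, that of all tested genes was 49.2% and that of ABCF1 was 52.9%. When each library's trend with transcript length and GC was removed, the median log2 fold change of the neighbours was 0.12 in place of 0.24, that of all genes was -0.002 and ABCF1 stood at -0.65 (SE 0.07). NRM then stood at 0.05 (SE 0.07), FLOT1 at 0.03 (SE 0.07) and DHX16 at 0.02 (SE 0.10), while PPP1R18 was at 0.23 (SE 0.06) and TUBB at 0.17 (SE 0.05). With this offset and the library set together, GNL1 (log2 fold change 0.31, SE 0.05), PPP1R18 (0.23, SE 0.05) and TUBB (0.17, SE 0.03) rose, at edgeR adjusted p of 0.00722, 0.0183 and 0.00697. That is 3 of 10 against 3.97% of genes, and 0 of 10 fell against 1.9%. The calls of NRM and FLOT1 ended in this fit (edgeR adjusted p = 0.702 and 0.761). In that fit PPP1R10 was at -0.18 (SE 0.05; edgeR adjusted p = 0.0784), so it neared but did not pass the threshold on the lower side.

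**Figure D4:**
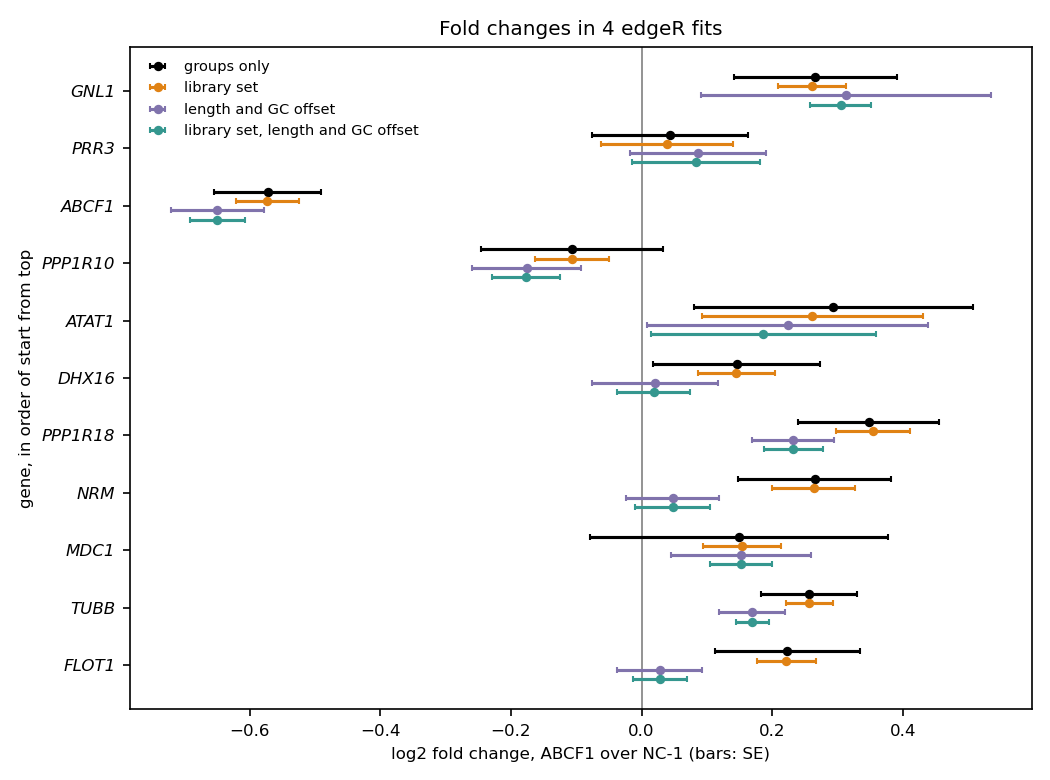
The log2 fold change, ABCF1 over NC-1, of ABCF1 and the 10 neighbours in order of start is plotted for 4 edgeR fits, namely groups only, with the library set, with the length and GC offset, and with both, with bars for the SE. ABCF1 lies between -0.65 and -0.57 in all 4, and NRM and FLOT1 come to 0.05 and 0.03 with the offset.

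The 6 other tested protein-coding genes that start within 250 kb of ABCF1 were not lower as ABCF1 was. Their log2 fold changes ran from -0.01 for TRIM39, a ubiquitin ligase, to 0.30 for RPP21, a ribonuclease P subunit, with a median of 0.23. With the length and GC offset their median was 0.02, with 4 of 6 above 0, against 8113 of all 16357 genes in that fit. HLA-E, a non-classical MHC class I molecule on the low-coordinate side of GNL1, was at 172, 184 and 209 CPM in the libraries labelled ABCF1, against 160, 152 and 158 CPM in NC-1. Its groups did not overlap and its log2 fold change was 0.27 (SE 0.10; edgeR adjusted p = 0.289). IER3, an early response gene just past FLOT1, averaged 177 ± 21.8 CPM against 146 ± 25.5 CPM in NC-1 (SD, n = 3 each; log2 fold change 0.28, SE 0.15; edgeR adjusted p = 0.408). MRPS18B, a mitochondrial ribosomal protein, was at 0.13 (SE 0.12; edgeR adjusted p = 0.647) and C6orf136 at 0.19 (SE 0.13; edgeR adjusted p = 0.518).

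Within 1 Mb of ABCF1, 70 other genes were tested. Their median log2 fold change was 0.18, with 55 above 0, against 50.1% of all tested genes. With the length and GC offset their median was 0.05, with 42 above 0, against 8113 of all 16357 genes in that fit. In 3 of the 70 the log2 fold change was as low as that of ABCF1 or lower, against 876 of all 16545 tested genes. Likeness to ABCF1 was measured as the root mean square difference between centred log2 CPM over the 6 libraries. By it, the closest of the 70 were AL662795.2, an unclassified gene model, at 0.26, and the long noncoding RNAs PSORS1C3 and HCG18, each at 0.27. AL662795.2 was low in count, with 69, 124 and 122 counts in the libraries labelled ABCF1 against 152, 179 and 196 in NC-1. PPP1R10 ranked 6 and PRR3 ranked 11 of the 70, with root mean square differences of 0.30 and 0.33, and the other 8 neighbours ranked 23 to 45.

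Genes related to the neighbours by family, pathway or cell compartment, but lying elsewhere in the genome, were read from 7 lists. No member of any list passed the edgeR test at an adjusted p under 0.05. Counts of list members above or below 0 are read against 50.1% of all tested genes above 0. With the length and GC offset, 8113 of all 16357 genes were above 0. In the fit with the library set, 2 of the 7 tested genes in a list of beta-tubulins and HDAC6, which deacetylates alpha-tubulin, were called higher, against 12.9% of all genes, and 0 lower, against 12.5%: TUBB3 (log2 fold change 0.31, SE 0.08 and edgeR adjusted p = 0.254 without the library set, adjusted p = 0.0030 with it) and TUBB4B (0.26, SE 0.09; edgeR adjusted p = 0.281 and 0.0022). The median of the list was 0.14, with 5 of 7 above 0, and it turned to -0.09 with the length and GC offset, with 3 of 7 above 0. TUBB1, barely detected, averaged 0.609 CPM against 0.986 CPM in NC-1. Of the 5 PP1 catalytic subunits and PNUTS partners, 1 was called higher and 1 lower in that fit, read against the same 12.9% and 12.5%. PPP1CA, a catalytic subunit, averaged 187 ± 18.4 CPM against 155 ± 9.88 CPM in NC-1, and PPP1CB, another, averaged 166 ± 3.67 CPM against 210 ± 25.3 CPM (SD, n = 3 each). TOX4, a DNA-binding partner of PNUTS, had a log2 fold change of 0.13 (SE 0.09; edgeR adjusted p = 0.520).

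For the 6 genes of MDC1's pathway the median log2 fold change was -0.19, with 4 below 0 and 3 called lower in the fit with the library set, against 12.5% of all genes. With the length and GC offset that median was -0.11. NBN, which MDC1 recruits to breaks as part of the MRN complex, averaged 10.6 ± 0.653 CPM in the libraries labelled ABCF1 and 15.9 ± 1.14 CPM in those labelled NC-1 (SD, n = 3 each; log2 fold change -0.59, SE 0.11). Its edgeR adjusted p was 0.252 without the library set and 0.0027 with it. RNF168, a ubiquitin ligase of the same response, was at -0.32 (SE 0.09) and ATM, its kinase, at -0.42 (SE 0.27), with edgeR adjusted p of 0.260 and 0.491. Both were called lower with the library set, while MDC1 itself, at 0.15, was not called.

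The remaining lists were small. Their calls in the fit with the library set are again read against 12.9% of all genes called higher and 12.5% lower. In a list of 3 spliceosomal helicases and GPKOW, a spliceosomal partner of DHX16, DHX15 (-0.25, SE 0.09) was called lower with the library set and DHX8 (0.16, SE 0.19) and GPKOW (0.14, SE 0.12) were not called. All 3 nucleolar GTPases related to GNL1 had log2 fold changes below 0, GNL3 at -0.28 (SE 0.12), GNL2 at -0.18 (SE 0.09) and GNL3L at -0.17 (SE 0.14), and GNL3 and GNL2 were called lower with the library set, whereas GNL1 was called higher. Among 5 nuclear envelope genes, 2 were called higher, EMD (0.28, SE 0.10) among them, and 3 lower, LBR (-0.33, SE 0.09) and TMPO (-0.27, SE 0.09) among them. FLOT2, the partner of FLOT1, and CAVIN1, a caveola coat protein, both stood at 0.20 (SE 0.08) and were called higher with the library set, while CAV1 at -0.16 (SE 0.09) was not called. With the length and GC offset added to the library set, none of the list genes named here as called was called (edgeR adjusted p = 0.0555 to 0.929), and TOX4 (0.20) and DHX8 (0.29) were called higher and GNL3L (-0.28) lower.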

How the data were processed

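Per the labels' protocols, Trizol was used for RNA extraction and a TruSeq RNA kit for the libraries. The authors deposited a table of gene counts, whole numbers without normalization, and a table of RPKM, reads scaled to transcript length and sequencing depth. The tools CASAVA 1.8, Trimmomatic, FastQC, HISAT2, StringTie and edgeR and the build GRCh38 come from the submitters' processing notes. Which tool did what, the annotation release and strand use are not given there.

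The deposited counts were tested in R 4.3.3 with edgeR 4.0.16 (TMM, quasi-likelihood F test, two-sided, Benjamini-Hochberg adjustment over 16545 genes), with calls at an adjusted p under 0.05. The SE was obtained as the log2 fold change over the root of F, without sign. Ratios of counts were tested by exact permutation in scipy 1.17.1. The edgeR fit was tested on simulated data. Alternatives were DESeq2 1.42.0, limma 3.58.1 on counts or on log2(RPKM + 1) and log2(RPKM + 0.1), other scalings and filters, a replicate block, each library left out, the library set, and a per-gene offset for transcript length and GC (mgcv 1.9.3), taken from the longest transcript in GENCODE 29, which covers 98.9% of tested genes. Adding a pseudocount to RPKM shrinks fold changes of low genes. Between libraries that share a label, chi-square per degree of freedom was at least 11.4, so no pair agreed within sampling noise.

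The members and lists were chosen with earlier results of these data known. By rule the text names ABCF1, the 10 neighbours, other protein-coding genes starting within 250 kb, overlapping genes, the 3 tested genes within 1 Mb most like ABCF1, and from each list the members with the smallest p, at most 3. Markers of hepatocytes, fibroblasts, leukocytes and endothelium were read as CPM.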

Additional observations from a re-analysis of the deposited data

How the results depend on the processing

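Of 19 other fits, 4 called genes where the edgeR fit to the groups alone called none: 626 under the DESeq2 Wald test, 1803 without both libraries that stand apart, 4193 with the library set and 959 with the library set and the length and GC offset. In these 4 fits 2, 4, 5 and 3 neighbours were called, all higher, and ABCF1 passed as lower at log2 fold changes of -0.56, -0.59, -0.57 and -0.65. ABCF1 stayed below 0 in all 19, between -0.68 and -0.55, with adjusted p from 6.1e-08 to 0.618. The median of the neighbours was 0.14 by library size alone and on both RPKM scales, and 0.12 with the offset with or without the library set; library size alone puts the median of all genes at -0.10. PRR3 changed sign by library size alone (-0.052) and on log2(RPKM + 1) (-0.066) and log2(RPKM + 0.1) (-0.074). With each library left out in turn, PRR3 ran from -0.021 to 0.15, PPP1R10 from -0.21 to 0.0057 and MDC1 from -0.039 to 0.33, each changing sign, and the median of the neighbours from 0.20 to 0.24; the cause was not tested. The mean log2 ratio of ABCF1 to its neighbours kept its sign, at -0.83 to -0.70. Correlations of deviations from the group mean between libraries of the same replicate number were 0.11, -0.11 and -0.15. With 3 libraries a group these cannot show whether such libraries were handled together. With the replicate block 0 genes were called and the median of the neighbours was 0.24. ABCF1 was then at -0.57 and the ratio at -0.76 (exact paired p = 0.25, the smallest 3 pairs allow). The lowest of these genes in count, ATAT1, had at least 351 counts in every library. With 3 libraries a group, whether depth or the spread between libraries limited the calls was not tested.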

Other observations

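TRIM39-RPP21, a readthrough gene that joins 2 genes on the low-coordinate side of ABCF1 and did not pass the filter, took 79 counts in ABCF1 replicate 3 and 71 in NC-1 replicate 2, and 0 in each of the other 4 libraries. These are the libraries that stood apart on the first principal component. RPP21, 1 of the 2 genes it joins, took 2135 counts in ABCF1 replicate 3, against 1282 and 1281 counts in the other two libraries labelled ABCF1 and 1187 to 1304 counts in those labelled NC-1. How reads were shared between the joined gene and its parts is not given in the sources used here.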
